A study of Mus musculus with 24 samples.

Results

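The genes described here are 44 components of the machinery that copies DNA, taken from a given list of symbols that covers origin recognition, helicase loading and activation, the replicative polymerases, the sliding clamp and Okazaki fragment processing. All 44 were found among the 47069 identifiers of the count table, and all 44 passed the filter on low counts, among 13419 genes that did. They were measured by RNA sequencing in mouse fetal liver cells of embryonic day 12.5 to 13.5. The cells came from a knock-in mouse strain, in which the CAG promoter drives Cas9 and EGFP from the Rosa26 locus. They carried a guide RNA transgene against Gata1 (sgGata1) in every group, controls included, and the labels describe them as Gata1s, the short form of the blood transcription factor GATA1. The cells of 4 groups also carried a miR-125b transgene and those of the other 4 a control transgene (miR-ctrl). Each kind of cell was sampled at day 2 after 48 h of doxycycline at 1 µg/mL, at day 10 and day 13 with continued doxycycline, and at day 13 after doxycycline had been withdrawn on day 10. Each of the 8 groups had 3 libraries. The labels do not say whether these came from separate embryos, transductions or cultures, so the p-values measure the spread between these libraries, which may be technical.

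Before S phase, the origin recognition complex marks origins, and CDC6 and CDT1 load the MCM helicase onto them, while geminin blocks CDT1 to prevent a second round. The Dbf4-dependent kinase, CDC45 and the GINS complex then switch the helicase on, and the polymerases copy both strands behind it with the PCNA clamp, its RFC loader and the single-strand binding protein RPA. Many of these genes are transcribed as cells approach S phase under E2F factors, and fetal liver progenitors are a dividing population.

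The sequences that bear on this design are the microRNA and the stretches of the replication genes that can be compared with it or with an E2F motif. Mature miR-125b-5p is the same from both of its loci in RefSeq, Mir125b-1 on chromosome 9 and Mir125b-2 on chromosome 16 (GRCm38.p6). Its seed, bases 2 to 8, is in capitals.
mmu-miR-125b-5p: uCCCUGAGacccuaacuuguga
The 3′ UTRs of 5 of the 44 genes held the 7-base match to the seed, CTCAGGG, in the longest annotated 3′ UTR (GENCODE M21, GRCm38). That was 11.4% of the members, against 15.9% of the 11665 tested genes with an annotated 3′ UTR, so the match was not more frequent among the replication genes. The sites of Orc2 and Rfc5 were followed by an A, which makes the longer 8-base site that 4.55% of the members and 5.61% of the tested genes held. Each site is shown with its neighbours, with the seed match in capitals and coordinates for the match alone.
Orc2 (chr1:58463934-58463940, minus strand): tgtacagtgtgCTCAGGGattctttggaa
Cdc6 (chr11:98922316-98922322, plus strand): tcacactttgcCTCAGGGttagcttccct
Mcm10 (chr2:4990056-4990062, minus strand): gttctcatctgCTCAGGGcgtggctgggt
Rfc2 (chr5:134599224-134599230, plus strand): cctctctggacCTCAGGGtcatttctact
Rfc5 (chr5:117378971-117378977, minus strand): gtaaaatgcatCTCAGGGaggtgctttca

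A promoter window of 300 bases, from 250 before the start site to 50 after it, was listed in RefSeq (GRCm38.p6) for 36 of the members. The 8 without an entry were Mcm4, Gmnn, Gins1, Gins2, Gins4, Prim2, Pole and Rfc2. For a gene with more than 1 listed start, only the first was used. The windows were searched on both strands for 4 forms of the E2F motif, TTTCCCGC, TTTGGCGC, TTTCGCGC and TTTGCCGC. At least 1 form was present in 14 of 36 members (38.9%) and in 626 of 27025 promoters of all genes (2.32%). A CCAAT box was present in 58.3% of members and 37.9% of all promoters, and the letters TTTGAA or TTCGAA of a CHR element in 22.2% and 19.4%. The median GC content was 61.8% in member windows and 52.7% in all windows, and the shares were not adjusted for it. The promoters of all genes include genes that did not pass the filter on low counts, whereas the members all did. The 14 members were Mcm3, Mcm5, Mcm6, Mcm7, Orc1, Orc3, Rfc3, Pold1, Pold3, Gins3, Cdt1, Cdc6, Pole2 and Pola1. The 180 bases before the start site are shown for 4 of them, a helicase subunit with a pair of places, another with overlapping matches, a loading factor and a polymerase subunit, each with its matches in capitals. In Mcm5 and in the upstream place of Mcm6, 2 matches on opposite strands share bases and form 1 longer run of capitals.
Mcm6 (chr1:128359706-128359885, minus strand): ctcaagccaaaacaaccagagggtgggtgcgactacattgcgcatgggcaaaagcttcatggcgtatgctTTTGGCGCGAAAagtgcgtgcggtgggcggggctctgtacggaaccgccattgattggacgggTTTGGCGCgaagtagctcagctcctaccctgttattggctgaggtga
Mcm5 (chr8:75109329-75109508, plus strand): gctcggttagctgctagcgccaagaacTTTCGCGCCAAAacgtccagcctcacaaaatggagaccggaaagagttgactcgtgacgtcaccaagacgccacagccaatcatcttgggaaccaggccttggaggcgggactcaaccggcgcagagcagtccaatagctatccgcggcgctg
Cdc6 (chr11:98907971-98908150, plus strand): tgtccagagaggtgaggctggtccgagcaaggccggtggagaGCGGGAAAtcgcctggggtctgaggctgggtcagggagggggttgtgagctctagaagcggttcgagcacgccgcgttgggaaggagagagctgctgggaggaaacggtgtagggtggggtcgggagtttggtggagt
Pola1 (chrX:93632156-93632335, minus strand): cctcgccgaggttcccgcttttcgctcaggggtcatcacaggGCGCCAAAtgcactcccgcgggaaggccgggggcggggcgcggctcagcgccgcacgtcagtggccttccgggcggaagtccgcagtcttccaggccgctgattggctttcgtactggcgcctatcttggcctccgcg

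The libraries held 14694900 to 23755245 counts, of which the 44 genes took 0.579% to 0.725%, or 90761 to 151340 counts per library. Mir125b-1 and Mir125b-2 had 0 counts in all 24 libraries, so the microRNA itself could not be followed, and Gata1, of which both protein forms come from 1 gene count, was not called in any of the 4 miR-125b comparisons. Arid3a, which the series title names as a miR-125b target, had 32.8, 32.8 and 29.8 CPM (counts scaled to library size) in the miR-125b libraries and 50.8, 53.6 and 71.0 in the control libraries at day 10. At day 13 it had 45.4, 57.5 and 53.7 CPM in the miR-125b libraries labelled continued and 31.4, 35.6 and 26.7 in those labelled withdrawal, so the low level lay in the libraries labelled withdrawal, against the direction of the labels. The day 13 groups are therefore named below by their labels. Summed markers of megakaryocytes lay at 2865 to 7485 CPM, of mast cells and basophils at 321 to 1461 and of erythroid cells at 455 to 856, whereas hepatocyte markers summed to 1.35 to 4.56 with Ttr and Serpina1a at 0 in every library, and lymphoid markers to 0.710 to 4.25 with Cd8a at 0. Endothelial and stromal markers summed to 167 to 207 CPM. In these bulk libraries, fewer cells of a type and less RNA per cell cannot be told apart, which applies to every level below.

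Pcna, the sliding clamp, was the most abundant of the 44 per length of its exons, at 264 ± 28.96 RPKM (reads per kilobase of exon, scaled to library size, mean ± SD over 24 libraries). The 6 subunits of the MCM helicase were all abundant, from 52.5 ± 4.996 RPKM for Mcm2 to 121 ± 9.57 for Mcm3. In the other roles the top member per length was Gmnn (geminin) at 81.8 ± 10.6, Rpa3 (the small RPA subunit) at 71.2 ± 10.2, Pold2 (a polymerase delta subunit) at 66.8 ± 7.62 and Lig1 (the ligase that joins Okazaki fragments) at 61.4 ± 5.36 RPKM. Gins4 of the GINS complex had 48.7 ± 4.47 RPKM, Orc6 of the origin recognition complex 39.0 ± 3.81, Prim1, the primase catalytic subunit, 28.2 ± 2.74 and Cdc7, the kinase partner of Dbf4, 12.4 ± 1.71. The subunits of 1 complex did not have 1 level: Orc6 stood well above Orc1, Orc4 and Orc5, which had 4.76 ± 0.767, 5.53 ± 0.564 and 5.63 ± 0.662 RPKM. The median of the 44 was 26.1 RPKM.

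Fen1, the flap endonuclease, was lowest at 1.16 ± 0.373 RPKM, but 84.2% of its exonic bases are shared with other genes, mostly with Gm10143 on the opposite strand, and the counting is not stated to use strand, so its count is uncertain. More than 10% of the exonic bases were also shared in Orc1, Orc2, Mcm7, Gins2, Rfc2, Rfc4, Rfc5 and Rnaseh2a, with the largest share in Gins2 (67.3%, with Gse1 on the opposite strand) and the next in Orc2 (29.8%, with Nif3l1 on the opposite strand). Levels varied little over the 24 libraries. The ratio of the highest to the lowest library ran from 1.24 for Orc3 to 1.98 for Gmnn, with 3.37 for Fen1 and a median of 1.53. No member reached a log2 fold change of 1 in any of the 17 comparisons made, and 42 of 44 stayed within 0.5 on the log2 scale in all of them.

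**Figure D1:**
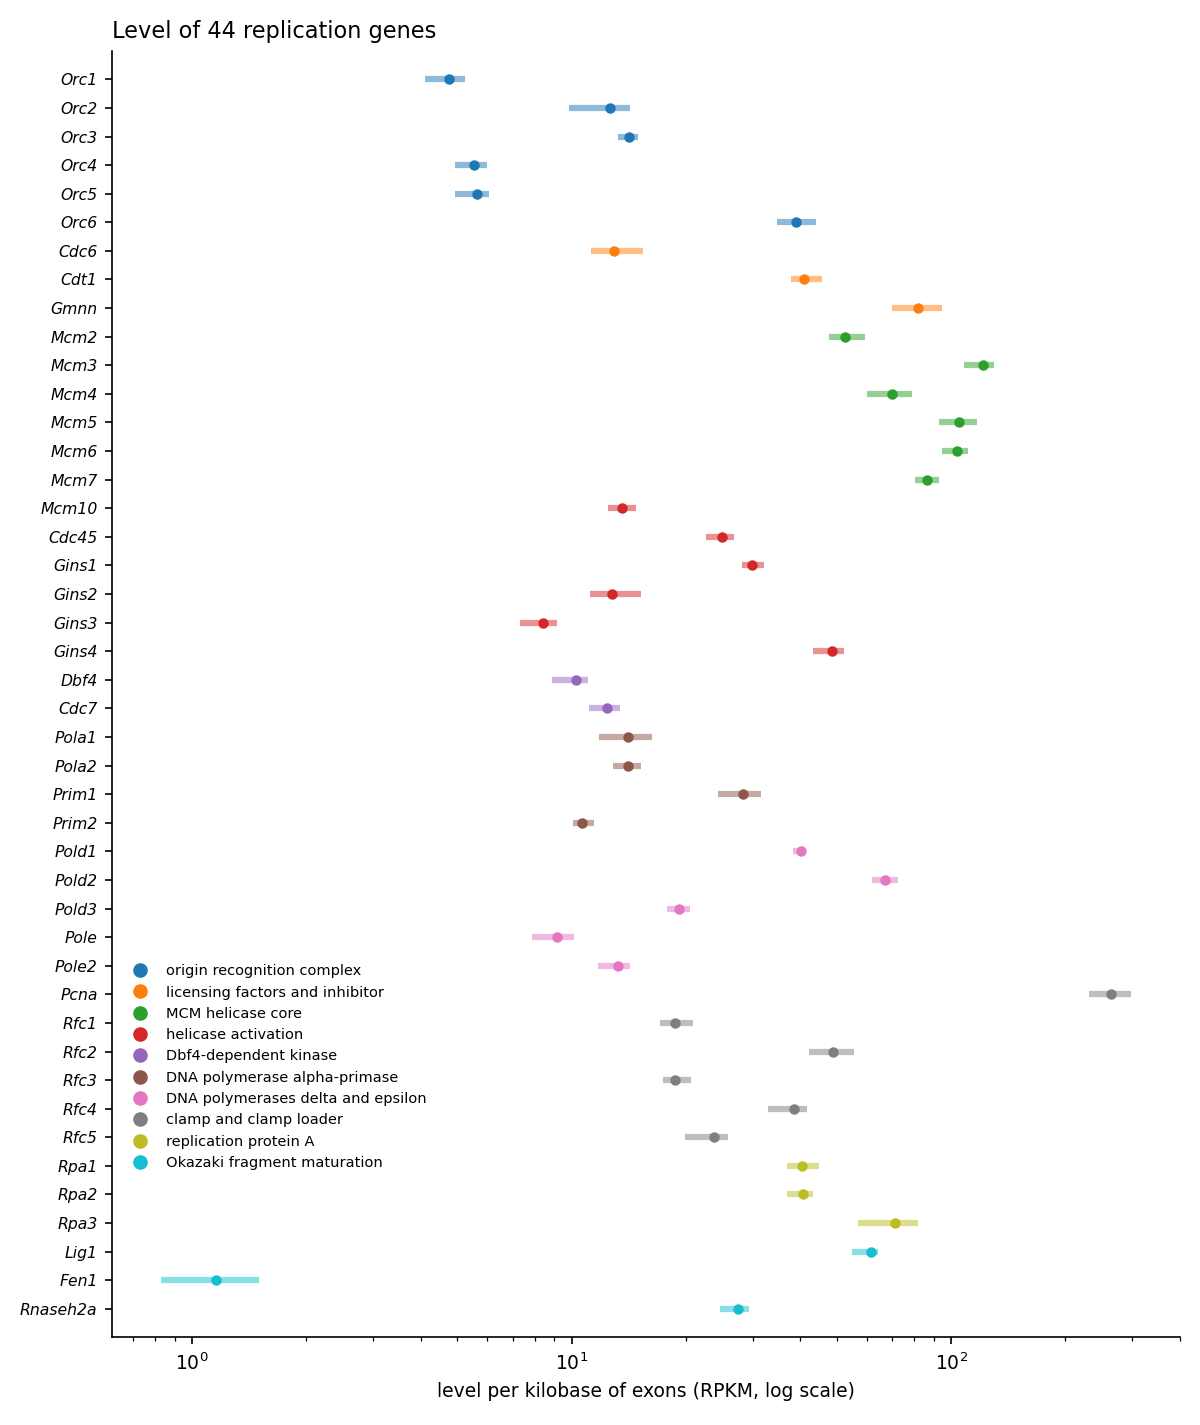
Level of each of the 44 genes per kilobase of exons (RPKM, log axis), coloured by role. Points are means over 24 libraries and bars run from the lowest to the highest of the 8 group means. Pcna lies highest at 264 RPKM, the 6 MCM subunits lie between 52.5 and 121, and Fen1 lies lowest at 1.16.

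As a first view, the mean log2 CPM of the 44 genes was taken in each library. At day 2 it was 6.60, 6.54 and 6.68 in the miR-125b libraries and 6.60, 6.48 and 6.62 in the control libraries. At day 10 it was 6.55, 6.53 and 6.51 with miR-125b and 6.75, 6.51 and 6.68 with control. The miR-125b libraries at day 10 lay close together, and the control libraries spread over a range that included them. At day 13 the libraries labelled continued had 6.77, 6.63 and 6.73 with miR-125b and 6.74, 6.52 and 6.62 with control. Those labelled withdrawal had 6.69, 6.67 and 6.77 with miR-125b and 6.69, 6.45 and 6.60 with control. The miR-125b group mean was 6.53 ± 0.019 (SD, n = 3) at day 10. It was 6.71 ± 0.072 at day 13 labelled continued and 6.71 ± 0.055 labelled withdrawal. The day 10 libraries did not overlap with either day 13 group. Over all genes the mean log2 CPM of these libraries did not overlap either, but with day 10 higher. It was 3.9963, 4.0156 and 4.016 at day 10 and 3.886, 3.9357 and 3.9099 at day 13 labelled continued. Labelled withdrawal it was 3.927, 3.9605 and 3.8876. A lack of overlap was thus not particular to the replication genes. In the control cells the means of the 44 genes in the same 3 conditions were 6.64 ± 0.12, 6.62 ± 0.11 and 6.58 ± 0.12, with overlapping libraries. Since libraries of the same replicate number deviated together, the differences were also taken within numbers 1, 2 and 3. Day 13 labelled continued minus day 10 was 0.22, 0.10 and 0.21 with miR-125b and -0.0069, 0.0066 and -0.060 with control. Day 13 labelled withdrawal minus day 10 was 0.14, 0.13 and 0.26 with miR-125b, all positive, and -0.055, -0.066 and -0.081 with control, all negative. Between miR-125b and control within numbers the difference was -0.0047, 0.064 and 0.065 at day 2, -0.19, 0.023 and -0.16 at day 10, 0.032, 0.11 and 0.11 at day 13 labelled continued and -0.0003, 0.22 and 0.17 labelled withdrawal, of which the group labelled continued alone had 1 sign in all 3 pairs. Replicate 2 was the lowest library in 7 of the 8 groups, including all 4 control groups.

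**Figure D2:**
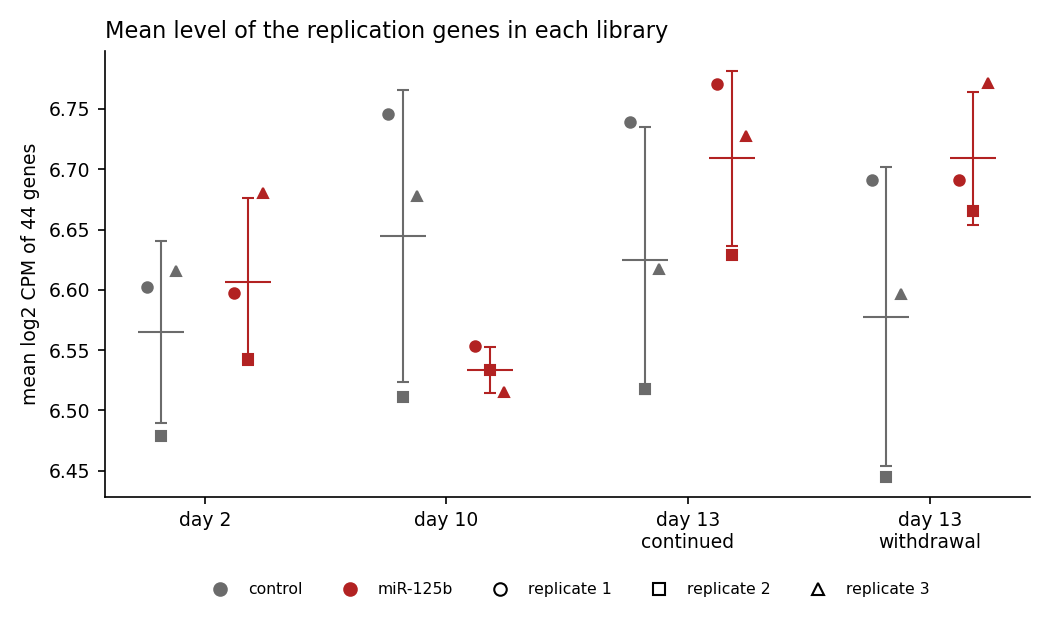
Mean log2 CPM of the 44 replication genes in each library, by condition, with control libraries in grey and miR-125b libraries in red. Symbols give the replicate number, spread sideways for clarity, and horizontal lines with bars give the mean ± SD of 3 libraries. The 3 miR-125b libraries at day 10 sit between 6.51 and 6.55, below all 6 miR-125b libraries at day 13, which start at 6.63.

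At day 2, after 48 h of doxycycline, no replication gene was called between miR-125b and control. The log2 fold change was positive in 32 of 44, with a median of 0.056 against 0.0039 over all 13419 genes. This median was 0.013 when miR-125b replicate 3 was left out and 0.10 when replicate 2 was. None of the 44 had an adjusted p under 0.05 in edgeR's quasi-likelihood test, where 0% of all genes were called, or in DESeq2, where 0.0224% were. An unadjusted p under 0.05 was reached by 2 members and by 709 of all genes. These were Gins2, a GINS subunit, and Rnaseh2a, the catalytic subunit of the nuclease that removes RNA primers. Gins2 had 49.5, 56.0 and 59.2 CPM in the miR-125b libraries and 48.6, 43.2 and 45.4 in the control libraries. Rnaseh2a had 94.3, 95.4 and 109.7 CPM against 86.3, 90.2 and 82.9. Neither pair of groups overlapped, and the log2 fold changes were 0.26 ± 0.074 (SE; edgeR adjusted p = 0.811) and 0.21 ± 0.091 (adjusted p = 0.933). Summed markers of neutrophils, monocytes and macrophages lay at 55.4 to 83.2 CPM with miR-125b and 37.5 to 53.0 with control at this time, and their part in these values was not tested.

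At day 10 most replication genes lay lower with miR-125b than with control, by small amounts. The log2 fold change was negative in 37 of 44, with a median of -0.13 against 0.0042 over all genes, which went to -0.20 when control replicate 2 was left out and to -0.084 when control replicate 1 was. No member was called in edgeR's test, where 0.872% of all genes were. Here 7 members had an unadjusted p under 0.05, beside 2334 of all genes. With the replicate number as a block in the fit, edgeR called 1158 of all genes and again no member. DESeq2 called 2, Pcna lower and Gins2 higher, beside 3.85% of all genes. Pcna had 586, 636 and 542 CPM with miR-125b and 754, 664 and 686 with control, without overlap. Its log2 fold change was -0.25 ± 0.082 (SE; edgeR adjusted p = 0.117, with 0.0455 to 0.503 over the alternatives). Gins2 stood against the trend, with 58.7, 61.3 and 57.0 CPM against 49.5, 53.2 and 48.4, again without overlap, and a log2 fold change of 0.23 ± 0.074 (adjusted p = 0.117, with 0.0469 to 0.38 over the alternatives). When miR-125b replicate 2 of day 10 was left out, edgeR called 5.84% of all genes and 2 members, Orc2 and Pcna, both lower. Beside this, summed markers of neutrophils, monocytes and macrophages lay at 49.5 to 113 CPM with miR-125b and 28.9 to 40.7 with control, 7 of the 9 tested were positive and 1 was called higher, and none of the 12 listed was at 0 in every library. The part of these cells in the members' values was not tested.

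At day 13 in the groups labelled continued, the direction was the opposite one but nothing was called. The log2 fold change was positive in 35 of 44, with a median of 0.10 against -0.016 over all genes. Leaving out control replicate 2 gave 0.041, and leaving out control replicate 1 gave 0.17. Neither edgeR, which called 0% of all genes, nor DESeq2, which called 0.0224%, called a member. An unadjusted p under 0.05 was reached by 388 of all genes and by 2 members. These were the helicase subunits Mcm2 and Mcm3. Mcm2 had 418, 419 and 398 CPM with miR-125b and 379.9, 352 and 342 with control, and Mcm3 had 510.1, 455 and 496 against 443, 402 and 434. Both were higher in all 3 miR-125b libraries than in any control library, with log2 fold changes of 0.20 ± 0.081 and 0.19 ± 0.081 (SE; edgeR adjusted p = 0.999 for both).

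At day 13 in the groups labelled withdrawal, 36 of 44 members were positive, with a median log2 fold change of 0.13 against -0.013 over all genes, and 1 was called higher by edgeR, where 0.119% of all genes were called. That gene was Gins2 (ENSMUSG00000031821, chromosome 8, 120578633 to 120589304, minus strand, GRCm38). It had 63.3, 61.9 and 62.1 CPM in the 3 miR-125b libraries and 47.2, 46.4 and 46.1 in the 3 control libraries, narrow groups that lay well apart. Gins2 rose by a log2 fold change of 0.42 ± 0.074 (SE; edgeR adjusted p = 0.0207, with 2.21e-05 to 0.899 over the alternatives). The fold change moved only from 0.41 to 0.43 when a library was left out, but the call was lost without any 1 of the 6 libraries (adjusted p from 0.0503 to 0.148), without the filter on low counts (0.0405% of all genes called), and when these 6 libraries were fitted alone (0%). DESeq2 called Gins2 as the one member, beside 0.708% of all genes. With the replicate number as a block, 1.86% of all genes were called and so were 2 members, Gins2 (adjusted p = 0.00954) and Cdc6, the helicase loader (log2 fold change 0.34 ± 0.087, adjusted p = 0.0455). Cdc6 had 79.6, 76.4 and 85.8 CPM with miR-125b and 65.9, 57.7 and 67.7 with control. Summed markers of neutrophils, monocytes and macrophages lay at 55.6 to 69.3 CPM with miR-125b and 28.8 to 51.0 with control, with 8 of 9 tested positive, 1 called higher and none of the 12 at 0 throughout, and their part in these values was not tested. Megakaryocyte markers summed to 3291 to 5339.5 CPM with miR-125b and 2922 to 7485 with control. Of these 12 markers, 9 were negative, with a median log2 fold change of -0.64, 0 were called without the block and 4 were called lower with it, and none was at 0 throughout. Their part in the calls of Gins2 and Cdc6 was not tested. Control replicate 1 of the withdrawal group stood apart in several members: Gmnn had 73.2, 108 and 126 CPM and Rfc5, a clamp loader subunit, 167, 91.4 and 104 in the 3 control libraries. Without that library the median of the 44 was 0.18, and without control replicate 2 it was 0.063.

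Averaged over the 4 conditions, Gins2 was the one member called between miR-125b and control, and 1.28% of all genes were called. It rose by 0.25 ± 0.037 on the log2 scale (SE; edgeR adjusted p = 0.00169), and the call held in all 24 fits that left out 1 library, with an adjusted p of 0.000841 to 0.0067. With the replicate block, 6.39% of all genes were called and Gins2 was again the one member (adjusted p = 0.000419), as it was in DESeq2, which called 2.66% of all genes. In the same average, the 9 tested markers of neutrophils, monocytes and macrophages were all positive with 2 called higher, and 2 of 9 mast cell and basophil markers were called higher. Of 12 megakaryocyte markers 8 were negative and 1 was called higher, and with the block 4 were called lower and 2 higher. The part of these cells in the value of Gins2 was not tested. In the condition labelled continued at day 13 its groups, 52.3, 48.1 and 52.1 CPM with miR-125b and 49.5, 48.4 and 46.2 with control, overlapped, and the log2 fold change was 0.082 ± 0.074 (adjusted p = 0.999). Since reads of Gins2 and the overlapping Gse1 may not be separated, the values of Gse1 are given beside it: its log2 fold changes were -0.49, -0.055, 0.025 and -0.32 in the 4 conditions in the same order, with no call. Over all 4 conditions, 34 of 44 members were positive with a median of 0.040, or 0.023 without control replicate 2 of the withdrawal group, an average of opposite directions: the median over day 2 and day 10 alone was -0.056. Gins2, Cdc7 and Pold1 were positive in each of the 4 comparisons, none was negative in each, and 28 were negative at day 10 and positive in both day 13 comparisons.

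**Figure D3:**
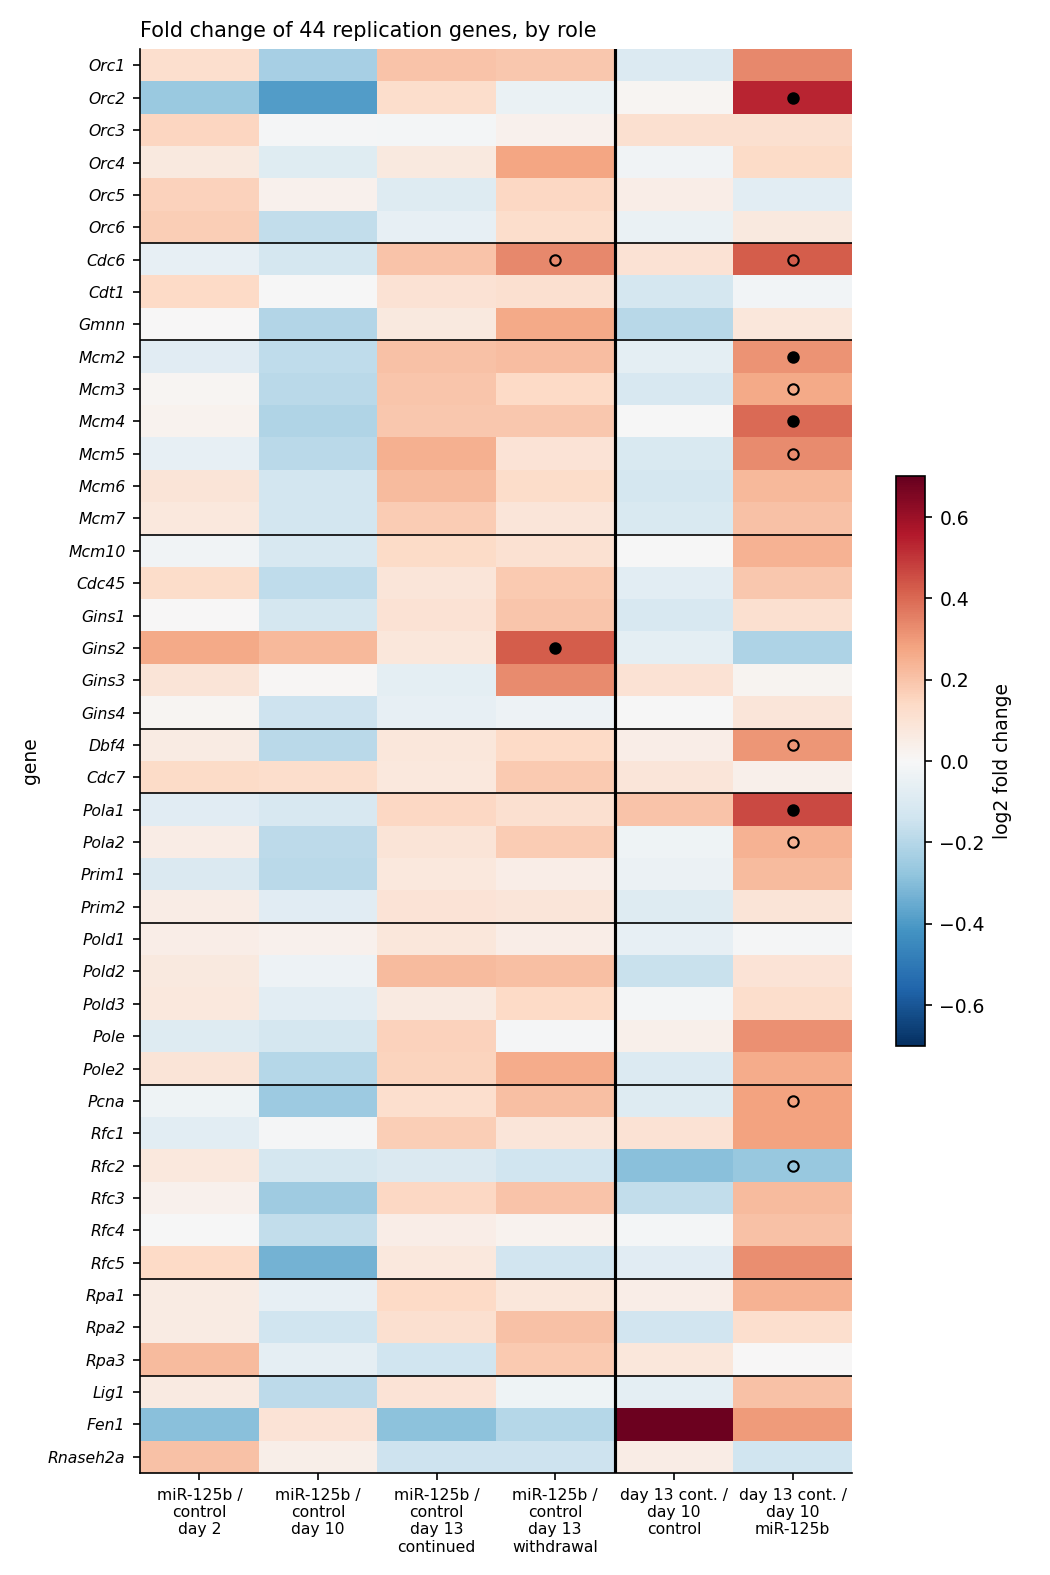
Log2 fold change of each member (rows, grouped by role) between miR-125b and control in the 4 conditions (left of the line) and between day 13 labelled continued and day 10 in each arm (right of the line). Filled circles mark an adjusted p under 0.05 in edgeR's test and open circles one that was reached only with the replicate block. The day 10 column is mostly blue (37 of 44 negative) and both day 13 columns mostly red (35 and 36 of 44 positive), and the filled circles stand at Gins2, Orc2, Mcm2, Mcm4 and Pola1.

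The course from day 2 was then taken in each arm. From day 2 to day 10, 30 of 44 members were positive in control cells, with a median log2 change of 0.070, whereas 31 of 44 were negative in miR-125b cells, with a median of -0.10. The medians over all genes were -0.0044 and 0.018. The control median was 0.014 when control replicate 2 of day 2 was left out and 0.12 when that of day 10 was. The miR-125b median was -0.051 when miR-125b replicate 3 of day 2 was left out. No member was called by edgeR in either arm, where 0% and 0.224% of all genes were. In the same order, 7 and 5 members had an unadjusted p under 0.05, beside 906 and 1999 of all genes. DESeq2 called 1 member, Pcna, and 0.313% of all genes in control cells, and 0 members and 2.24% of all genes in miR-125b cells. Megakaryocyte markers were negative in 10 of 12 in control cells and 11 of 12 in miR-125b cells, with 2 called lower in the latter with the block, and their part was not tested. In control cells the lowest p-values belonged to Pcna, with 599, 547 and 555 CPM at day 2 and 754, 664 and 686 at day 10, and to Rpa3, with 70.0, 63.2 and 60.6 against 98.6, 86.7 and 78.9. Neither overlapped between the days, and the log2 changes were 0.31 ± 0.083 and 0.45 ± 0.13 (SE; edgeR adjusted p = 0.316 and 0.337). In miR-125b cells Orc6, the smallest origin recognition subunit, had 104, 103 and 119 CPM at day 2 and 83.9, 96.2 and 90.8 at day 10. Its log2 change of -0.27 ± 0.10 missed the threshold (adjusted p = 0.223) and passed it with the replicate block (adjusted p = 0.0443, over the alternatives 0.0443 to 0.54), where 4.08% of all genes were called.

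The difference between the arms in this course, tested as an interaction, was negative in 42 of 44 members, with a median of -0.16 against 0.0084 over all genes. No member and 0% of all genes passed edgeR's test, and DESeq2 called 0 members and 0% of all genes. An unadjusted p under 0.05 was reached by 1 member and by 920 of all genes. The lowest p-values were those of Orc6 (-0.34 ± 0.15, SE; edgeR adjusted p = 0.709) and Cdc45, a helicase activator (-0.31 ± 0.16, adjusted p = 0.723). Cdc45 had 79.1, 81.8 and 98.6 against 83.8, 76.2 and 85.5 CPM at day 2 and day 10 with miR-125b, and 85.0, 72.7 and 79.9 against 103, 76.1 and 98.5 with control.

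From day 10 to day 13 labelled continued, the replication genes were mostly higher in miR-125b cells and 4 of them rose. In these cells 38 of 44 members were positive, with a median log2 change of 0.21 against -0.029 over all genes. In control cells 14 were positive, with a median of -0.044 that went to -0.11 when control replicate 2 of day 10 was left out and to 0.017 when replicate 1 was. EdgeR called 4 of 44 members higher and none lower in miR-125b cells, where 3.53% of all genes were called. In control cells it called none, with 0.0224% of all genes, and DESeq2 called 0 members beside 0.119% of all genes. In control cells 2 members and 471 of all genes had an unadjusted p under 0.05. The comparison in miR-125b cells uses the same day 10 libraries as the miR-125b comparison at day 10, so the negative values there and the positive ones here are not separate evidence.

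Orc2 (ENSMUSG00000026037, chromosome 1, 58462771 to 58505109, minus strand), an origin recognition subunit, had 33.9, 46.5 and 33.6 CPM at day 10 and 56.9, 52.8 and 55.0 at day 13 labelled continued. It rose by 0.53 ± 0.14 on the log2 scale (SE; edgeR adjusted p = 0.04), and replicate 2 was the highest day 10 library. Pola1 (ENSMUSG00000006678, chromosome X, 93304767 to 93632155, minus strand), the catalytic subunit of the polymerase that extends primers, had 101, 104 and 108 against 143, 146 and 142 CPM. It rose by 0.46 ± 0.12 (adjusted p = 0.0377), and both groups were tight and far apart. Among the helicase subunits, Mcm4 (ENSMUSG00000022673, chromosome 16, 15623897 to 15637400, minus strand) had 201, 235 and 208 against 291, 274 and 283 CPM and rose by 0.40 ± 0.11 (adjusted p = 0.0441). Mcm2 (ENSMUSG00000002870, chromosome 6, 88883474 to 88898780, minus strand) had 309.8, 362 and 322 against 418, 419 and 398 CPM and rose by 0.31 ± 0.082 (adjusted p = 0.04). All 4 were higher in each day 13 library than in any day 10 library. In control cells the same genes had log2 changes of 0.016 ± 0.14, 0.20 ± 0.12, -0.0027 ± 0.11 and -0.066 ± 0.081 in the same order, with no call.

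These calls were sensitive to single libraries and to the model. Without replicate 2 of the day 10 miR-125b group edgeR called 6 members beside 7.92% of all genes, and without any other of the 6 libraries it called 0. For Orc2 the adjusted p ran from 0.00623 to 0.208 over the alternatives, for Pola1 from 0.00815 to 0.154, for Mcm4 from 0.0137 to 0.197 and for Mcm2 from 0.00784 to 0.188. It called 2 members and 1.08% of all genes without the low-count filter, and 0 members and 0.016% when these groups were fitted alone. DESeq2 called 10 members, of which Gins2 and Rfc2 were lower, and 7.42% of all genes. With the replicate block 13.4% of all genes and 11 members were called. Those were higher for Orc2, Cdc6, Mcm2, Mcm3, Mcm4, Mcm5, Dbf4, Pola1, Pola2 and Pcna, and lower for Rfc2. Rfc2, a clamp loader subunit, had 328, 316 and 315 CPM at day 10 and 269.5, 254 and 274 at day 13 with miR-125b, and 379, 351 and 316 against 306, 276 and 273 with control, so it lay lower at day 13 in both arms. Erythroid markers in the miR-125b libraries summed to 455 to 662 CPM at day 10 and 729.9 to 822 at day 13 labelled continued, without overlap, with 5 of 9 tested positive, 1 called higher and Slc4a1 at 0 in every library. Megakaryocyte markers were negative in 9 of 12, with none called, and 2 lower with the block. Their part in the members' values was not tested.

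**Figure D4:**
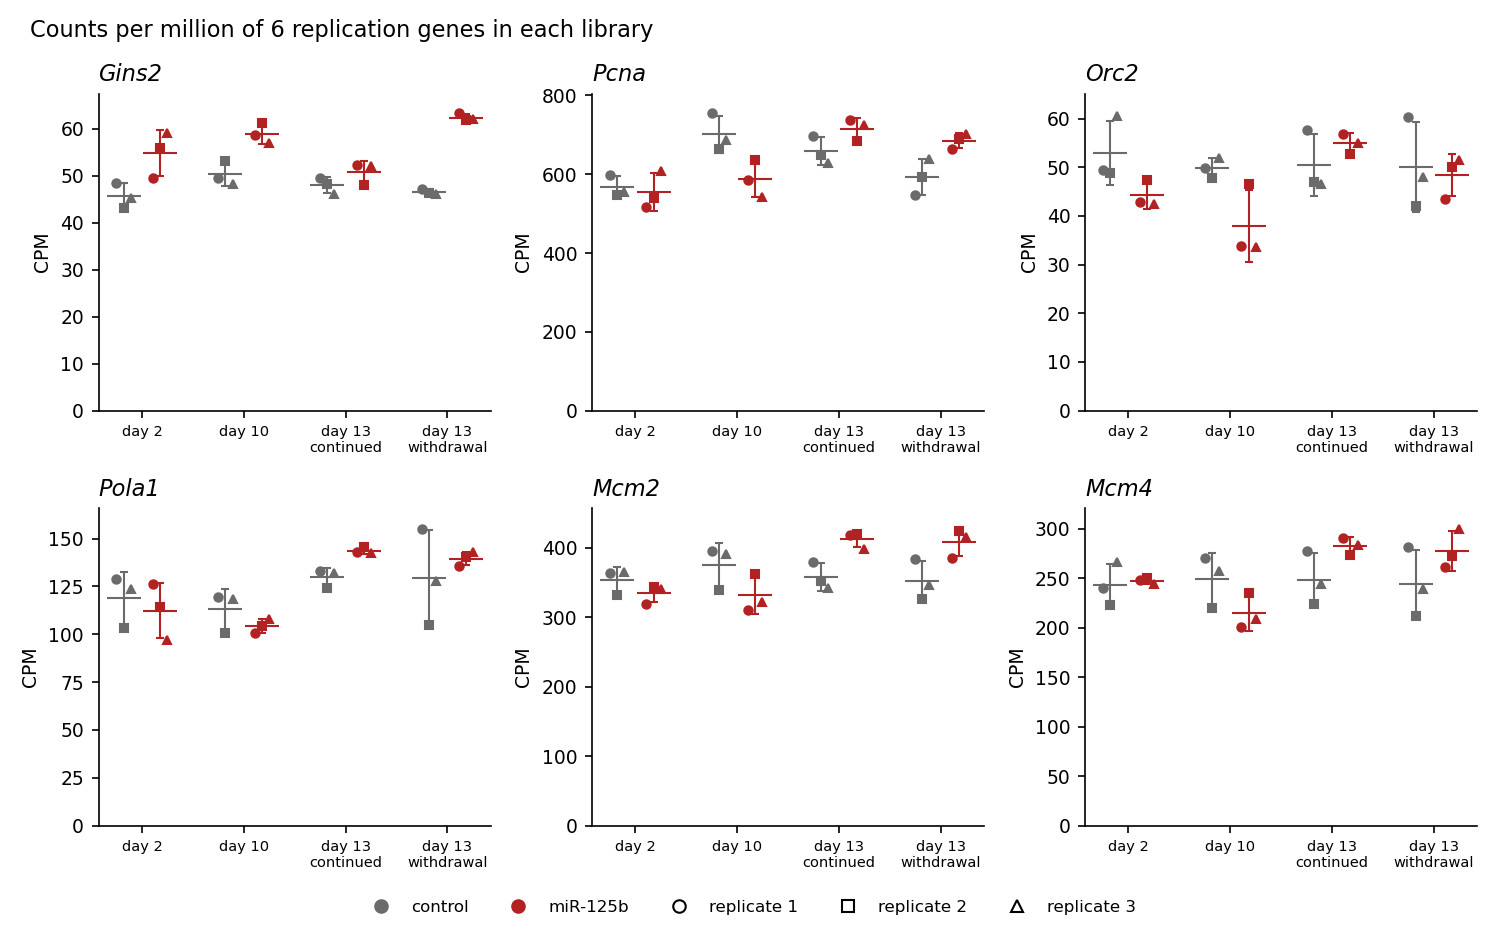
CPM of 6 members in each of the 24 libraries, by condition, with control in grey and miR-125b in red. Lines with bars give the mean ± SD of 3 libraries, and every axis starts at 0. Gins2 separates most in the groups labelled withdrawal (61.9 to 63.3 against 46.1 to 47.2 CPM), and Orc2, Pola1, Mcm2 and Mcm4 have their lowest miR-125b group mean at day 10 and higher means in both day 13 groups.

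The libraries labelled withdrawal gave a similar picture when set against day 10, in comparisons added after the first results were seen. In miR-125b cells 39 of 44 members were positive, with a median of 0.20, and in control cells 12, with a median of -0.063. The control median went to -0.15 when control replicate 2 of day 10 was left out and to 0.014 when that of the withdrawal group was. The medians over all genes were -0.025 and 0.016. EdgeR called no member in either arm, where 0.179% and 0% of all genes were called. In the same order, 13 and 6 members had an unadjusted p under 0.05, beside 2164 and 887 of all genes. DESeq2 called 4 and 0 members beside 2.52% and 0% of all genes. With the block 5 members passed in miR-125b cells, Cdc6, Mcm2, Mcm3, Mcm4 and Pola1, beside 5.33% of all genes, and all 5 were also called with the block in the group labelled continued. Both comparisons share the day 10 libraries. Megakaryocyte markers in the same comparison were negative in 11 of 12, with a median log2 change of -0.35 and none called. They summed to 4233 to 5833 CPM at day 10 and 3291 to 5339.5 at day 13 labelled withdrawal. Of 9 erythroid markers 1 was called higher with the block, and the part of these cells was not tested. Cdc6 had 61.3, 60.1 and 57.9 CPM at day 10 and 79.6, 76.4 and 85.8 at day 13 labelled withdrawal, with a log2 change of 0.43 ± 0.12 (SE; edgeR adjusted p = 0.104, with the block 0.018, over the alternatives 0.018 to 0.429). Pola1 reached 136, 140.2 and 143 CPM and Mcm4 261, 272 and 300.1, near their levels in the group labelled continued, with log2 changes from day 10 of 0.42 ± 0.12 and 0.37 ± 0.11 (adjusted p = 0.0986 and 0.109). Mcm3 had 411, 411 and 392 CPM at day 10 and 483, 478 and 497 at day 13 labelled withdrawal, a log2 change of 0.27 ± 0.081 (adjusted p = 0.121). In control cells the lowest p-values were those of Gmnn, -0.44 ± 0.14 (adjusted p = 0.735), and Pcna, -0.24 ± 0.082 (adjusted p = 0.735). The value of Gmnn was -0.25 without control replicate 1 of the withdrawal group.

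The change from day 10 to day 13 was also compared between the arms, as an interaction, in comparisons added after the first results were seen. For the groups labelled continued it was positive in 36 of 44 members, with a median of 0.25 against -0.038 over all genes. EdgeR called no member and 0.0224% of all genes, and 10 members and 1957 of all genes had an unadjusted p under 0.05. DESeq2 called 3 members, Mcm2, Mcm3 and Pcna, beside 2.16% of all genes. With the block 3.85% of all genes and 1 member were called, Mcm3, at 0.38 ± 0.10 (SE; edgeR adjusted p = 0.0407, against 0.129 without the block and 0.0407 to 0.344 over the alternatives). Mcm3 went from 411, 411 and 392 to 510.1, 455 and 496 CPM with miR-125b and from 479.5, 423 and 481 to 443, 402 and 434 with control. For the groups labelled withdrawal the interaction was positive in 41 of 44, with a median of 0.24 against -0.042. EdgeR called no member and 0% of all genes, and 13 members and 1627 of all genes had an unadjusted p under 0.05. DESeq2 called 1 member, Pcna, beside 0.596% of all genes. All 12 megakaryocyte markers were negative in this interaction, with none called, and 9 of 12 in the one for the groups labelled continued, and their part was not tested. The lowest p-values were those of Pcna (0.46 ± 0.12, SE; edgeR adjusted p = 0.155, over the alternatives 0.0184 to 0.472) and Mcm2 (0.39 ± 0.12, adjusted p = 0.187). Pcna had 665, 689 and 703 CPM in the miR-125b libraries labelled withdrawal and 546, 593 and 638 in the control ones, and Mcm2 had 386, 424 and 415 against 383, 326 and 347.

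Between the groups labelled withdrawal and continued at day 13, the replication genes showed no common direction. The log2 fold change was positive in 21 of 44 members in miR-125b cells and 18 in control cells, with medians of -0.0014 and -0.019 that took either sign as single libraries were left out (-0.041 to 0.041 and -0.089 to 0.058). EdgeR called 0% and 0% of all genes and no member in the 2 arms, and 0% of all genes and no member in the interaction, which was positive in 24 of 44 with a median of 0.011. DESeq2 called 0 members in all 3, and 0.0522%, 0.0596% and 0% of all genes in the same order. An unadjusted p under 0.05 was reached by 1 member in miR-125b cells, 2 in control cells and 2 in the interaction. The numbers over all genes were 297, 356 and 226 in the same order. In miR-125b cells Gins2 had 52.3, 48.1 and 52.1 CPM labelled continued and 63.3, 61.9 and 62.1 labelled withdrawal, without overlap, and a log2 fold change of 0.30 ± 0.074 (SE; edgeR adjusted p = 0.848). Prim1 came next, with 120.0, 119.9 and 125.5 against 112, 106 and 115 CPM and a log2 fold change of -0.14 ± 0.083 (adjusted p = 1). In control cells Gins3, another GINS subunit, had 24.02, 22.9 and 23.8 against 19.5, 17.6 and 22.2 CPM, and Rpa3 had 102, 96.2 and 81.1 against 59.8, 82.8 and 78.9. Their log2 fold changes were -0.25 ± 0.10 and -0.33 ± 0.13 (adjusted p = 1 for both). The Rpa3 groups overlapped, and without control replicate 1 of the withdrawal group its value was -0.20. The interactions of Gins2 and Gins3 were 0.34 ± 0.10 and 0.40 ± 0.14 (adjusted p = 1 for both).

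By role, the members that act first, at origin recognition, did not share 1 direction. The 6 subunits had log2 fold changes between miR-125b and control of -0.26 to 0.17 at day 2, -0.39 to 0.031 at day 10, -0.088 to 0.20 at day 13 labelled continued and -0.049 to 0.28 labelled withdrawal. Orc2 was the lowest at day 2, day 10 and in the group labelled withdrawal. The last of these did not hold when control replicate 1 of the withdrawal group was left out. All 6 were then positive, from 0.0066 for Orc5 to 0.40 for Orc1, with 0.10 for Orc2. Orc2 had 42.9, 47.3 and 42.4 CPM with miR-125b and 49.5, 48.8 and 60.6 with control at day 2, without overlap, and 49.9, 47.9 and 51.9 with control at day 10. Orc2 also carries the 8-base seed site shown above and shares exons with Nif3l1, whose log2 fold changes in the same 4 comparisons were 0.055, -0.17, 0.18 and 0.093. Orc1, the subunit whose level is known to follow the cell cycle, had -0.23 at day 10 and 0.20 and 0.19 at day 13, while Orc3, a core subunit, stayed between -0.011 and 0.15 in all 4. Orc4 and Orc5, also core subunits, had -0.086 and 0.031 at day 10.

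The licensing factors were positive at day 13 labelled withdrawal. Cdc6, Cdt1 and the inhibitor Gmnn had log2 fold changes of -0.059, 0.14 and 0.0015 at day 2, -0.12, -0.0012 and -0.20 at day 10, and 0.34, 0.11 and 0.27 at day 13 labelled withdrawal. Cdt1, which brings the helicase to origins together with Cdc6, was nearer to 0 than its partner and its inhibitor at day 10 and at day 13 labelled withdrawal. These differences between members were not tested. The value of Gmnn labelled withdrawal was 0.077 without control replicate 1 of that group, and that of Cdt1 0.18, so Gmnn was then nearer to 0 than Cdt1.

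The MCM helicase core shared 1 direction in each condition after day 2. All 6 subunits were negative at day 10, from -0.21 to -0.13, and all 6 positive at day 13, from 0.18 to 0.25 labelled continued and 0.086 to 0.21 labelled withdrawal. Without control replicate 1 of the withdrawal group, the values labelled withdrawal ran from 0.22 to 0.33. At day 2 the 6 subunits lay at -0.082 to 0.092. From day 10 to day 13 labelled continued all 6 were positive in miR-125b cells, from 0.21 to 0.40, and all 6 negative in control cells, from -0.12 to -0.0027. The proteins form a single ring, and Mcm3, Mcm5, Mcm6 and Mcm7 had an E2F-type motif in the promoter window. Mcm5 had 375, 373 and 366 CPM at day 10 and 499, 449 and 452 at day 13 labelled continued with miR-125b, and 458, 358 and 452 against 425, 359 and 395 with control. Mcm6 had 445, 449 and 431 against 529.6, 493 and 527 with miR-125b, and Mcm7 364, 355 and 347 against 417, 384 and 429.8.

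Among the helicase activators, Gins2 was the one called member. Gins1, Gins2, Gins3 and Gins4, which form 1 complex, had log2 fold changes of -0.12, 0.23, 0.0099 and -0.15 at day 10, and 0.20, 0.42, 0.33 and -0.035 at day 13 labelled withdrawal. The value of Gins4 labelled withdrawal turned to 0.063 without control replicate 1 of that group, and the other subunits stayed positive. Cdc45 had -0.18 and 0.18 in these conditions, and Mcm10, which helps the activated helicase start, -0.11 and 0.10. Of the kinase that triggers activation, Dbf4 had -0.19 at day 10 and its catalytic partner Cdc7 0.12. Dbf4 had 75.8, 84.0 and 72.7 CPM at day 10 and 97.6, 96.5 and 94.3 at day 13 labelled continued with miR-125b, and Cdc7 61.0, 43.7 and 59.4 against 62.4, 54.0 and 51.7.

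All 4 subunits of the polymerase alpha-primase were negative at day 10 (-0.19 to -0.080) and positive in both day 13 comparisons (0.076 to 0.15 and 0.049 to 0.18). Pola2, its regulatory subunit, had 118, 99.98 and 103 CPM at day 10 and 140.0, 118 and 121 at day 13 labelled continued with miR-125b. Prim2, the large primase subunit, had values within -0.080 to 0.10 in the 4 comparisons. Without control replicate 1 of the withdrawal group, Prim1 had -0.0092 in the comparison labelled withdrawal. Of the main copying polymerases, Pold1, the catalytic subunit of polymerase delta, stayed within 0.032 to 0.077 in all 4. Pole, the catalytic subunit of polymerase epsilon, ranged from -0.12 at day 10 to 0.16 at day 13 labelled continued, and its partner Pole2 from -0.20 at day 10 to 0.26 labelled withdrawal. Pold2 and Pold3, accessory subunits of polymerase delta, had -0.033 and -0.074 at day 10.

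The clamp and its loader were negative in all 6 members at day 10 (-0.33 to -0.0063), the role with the most negative median, -0.21. Rfc5 was lowest at -0.33, with 95.1, 94.5 and 88.3 CPM with miR-125b and 135, 96.8 and 117 with control, and Rfc1, the large loader subunit, was nearest 0 at -0.0063. At day 13 labelled withdrawal Rfc5 had -0.13, which turned to 0.17 without control replicate 1 of that group. Rfc3 and Rfc4, small loader subunits, had -0.25 and -0.17 at day 10. The 3 RPA subunits, which coat single-stranded DNA as one complex, lay at -0.14 to -0.058 at day 10 and 0.082 to 0.21 at day 13 labelled withdrawal. Rpa1 and Rpa2, the larger subunits, had 0.24 and 0.12 from day 10 to day 13 labelled continued with miR-125b. Of the Okazaki fragment genes, Lig1 had -0.18 at day 10 and 0.093 at day 13 labelled continued, and Rnaseh2a 0.043 and -0.14. Fen1 had 0.10 and -0.29 in these comparisons. Its levels at day 10 were 2.04, 2.28 and 2.92 CPM with miR-125b and 2.14, 2.36 and 2.28 with control, and its reads overlap those of the opposite strand.

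Other genes around the replication fork were counted from lists chosen, like the members, with earlier results of these data known. At day 10 none of 24 further fork genes, 10 genes of deoxynucleotide supply, 11 of replication-coupled chromatin and 22 of mitosis was called by edgeR between miR-125b and control, and their log2 fold changes were positive in 6, 0, 1 and 10. Of 21 regulators of the G1/S transition, 3 fell and 1 rose, with the lowest p-values for Ccne1 and Ccne2, the E cyclins that start S phase. Ccne1 had 16.2, 28.7 and 14.7 CPM with miR-125b and 42.5, 35.9 and 34.5 with control and fell, with a log2 fold change of -0.92 ± 0.21 (SE; edgeR adjusted p = 0.0461). Ccne2 had 21.9, 26.8 and 24.3 against 40.6, 35.3 and 35.3 and fell, with -0.61 ± 0.14 (adjusted p = 0.0471). Of 6 reported miR-125b targets 3 fell, with the lowest p-values for Arid3a (-0.88 ± 0.16, adjusted p = 0.023) and Lactb (-0.86 ± 0.18, adjusted p = 0.0311). At day 2 and at day 13 labelled continued none of these 94 genes was called, and at day 13 labelled withdrawal 3 were, Skp2, a ubiquitin ligase subunit that acts at G1/S, higher (0.54 ± 0.10, adjusted p = 0.0259) and Arid3a and Abtb1 lower (-1.15 ± 0.16 and -1.25 ± 0.18, adjusted p = 0.00435 for both).

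From day 10 to day 13 labelled continued in miR-125b cells, more of these genes passed, beside 3.53% of all genes. Of the fork genes 4 of 24 rose and 1 fell, with the lowest p-values for Pold4, the smallest polymerase delta subunit, which fell (-0.78 ± 0.15, SE; edgeR adjusted p = 0.0142), and Top1, the topoisomerase that relieves twist ahead of the fork, which rose (0.49 ± 0.11, adjusted p = 0.0253). Of the deoxynucleotide supply genes 2 of 10 rose, Rrm2, a ribonucleotide reductase subunit (0.46 ± 0.11, adjusted p = 0.0364), and Tyms, thymidylate synthase (0.43 ± 0.12, adjusted p = 0.0482). The histone chaperone gene Nasp rose as 1 of 11 chromatin genes (0.39 ± 0.11, adjusted p = 0.0482) and Kif20a, a kinesin of cell division, as 1 of 22 mitosis genes (0.49 ± 0.13, adjusted p = 0.0482). Of the G1/S regulators 3 of 21 rose and 1 fell, with the lowest p-values for Ccne2 (0.82 ± 0.14, adjusted p = 0.00999) and the cyclin-dependent kinase inhibitor Cdkn1a, which fell (-1.12 ± 0.23, adjusted p = 0.0203). Arid3a rose as 1 of the 6 reported targets (0.72 ± 0.16, adjusted p = 0.0276).

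The members were then split by these sequence features, as a description without a test. Between miR-125b and control at day 10 the 14 members with an E2F-type motif had a median log2 fold change of -0.13 and the 22 without one -0.16. At day 13 labelled continued the medians were 0.15 and 0.081, and from day 10 to day 13 labelled continued in miR-125b cells 0.22 and 0.21. From day 2 to day 10 the medians lay further apart, at -0.15 with a motif (1 of 14 positive) and -0.030 without one (8 of 22) in miR-125b cells, and at -0.0001 and 0.088 in control cells. Among the 4 genes that rose from day 10 to day 13 labelled continued only Pola1 had a motif, Orc2 and Mcm2 had none in this window, and Mcm4 had no window. For Orc2, 2 windows were listed and the first was searched. The 5 members with a seed match for miR-125b were negative in 3 cases at day 2, 5 at day 10, 1 at day 13 labelled continued and 3 labelled withdrawal. Their medians were -0.023, -0.13, 0.12 and -0.049 in that order, and those of the other 39 members 0.056, -0.13, 0.093 and 0.14. The values labelled withdrawal depended on control replicate 1 of that group. When it was left out, Orc2 had 0.10, Cdc6 0.36, Mcm10 0.30 and Rfc5 0.17, and only Rfc2 was negative, at -0.10. The log2 fold changes of the 5 members at day 10 were -0.39 for Orc2, -0.12 for Cdc6, -0.11 for Mcm10, -0.13 for Rfc2 and -0.33 for Rfc5. Orc2 and Rfc5, the 2 with the 8-base site, had the lowest values of all 44 genes at day 10, but neither was called (edgeR adjusted p = 0.142 and 0.368), and at day 2 Rfc5 had 0.14.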

How the data were processed

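The authors' deposited table held raw read counts per gene for 24 libraries, without normalization and with replicates not pooled. Per the submitters' processing notes, fastp, HISAT2 2.0.5, featureCounts and the mm10 build were used; strand setting and annotation release are not given in the sources used here. Of 47069 identifiers, 46574 were matched to a name in GENCODE M21 (GRCm38), and the rest took 0.0306% of the counts of a library or less.

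EdgeR 4.0.16 in R 4.3.3 (filterByExpr, TMM factors 0.932 to 1.04, robust glmQLFit, glmQLFTest, two-sided) fitted 1 model to 24 libraries and 8 groups, leaving 16 residual degrees of freedom. The Benjamini-Hochberg adjustment ran over 13419 genes, and a gene was called at an adjusted p below 0.05. Standard errors derive from the quasi-likelihood F statistic. CPM are TMM-scaled, RPKM use the exonic length, and mean log2 CPM used a prior count of 2. Of 17 comparisons, 13 were planned and 4 added after results were seen. The script was tested on simulated counts.

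The labels give replicate numbers 1 to 3 in every group. Deviations from group means correlated across genes above 0.1 in all 84 same-numbered pairs (0.163 to 0.781), against a median of -0.304 for different numbers. A fit with the number as a block was therefore an alternative. Over the members alone, 59 of these pairs lay above 0.1, with a median of 0.248, against -0.114 for different numbers. Deviations sum to 0 within a group, so the values for same and different numbers are not independent. The labels do not say what a number shares. Replicates differed beyond sampling noise (chi-square per degree of freedom 11.0 to 101 in 24 pairs). Other alternatives were DESeq2 1.42.0 and its size factors, no low-count filter, a newer dispersion estimate, the groups compared alone, and leaving out each library.

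The members and all lists were chosen with earlier results of these data known. Library values are given, per comparison, for up to 4 members called in each direction, failing that up to 4 called with the block, failing that the 2 with the lowest p, and for other members where a role is described. The top member of each role is by RPKM.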

Additional observations from a re-analysis of the deposited data

Results flagged for a closer look

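Mcm3 was singled out because its change from day 10 to day 13 labelled continued differed between the arms in the test of the interaction with the replicate block. That comparison was added after the first results were seen. With the replicate block the log2 interaction was 0.377 (edgeR adjusted p = 0.0407), and 0.38 without it (adjusted p = 0.129). In the same order, 3.85% and 0.0224% of all genes were called. Mcm3 had a mean of 405 ± 10.98 CPM (SD, n = 3) at day 10 and 487 ± 28.8 at day 13 with miR-125b, and 461 ± 33.1 and 426 ± 21.7 with control. When single libraries were left out without the block, the value ran from 0.34 to 0.44 and passed in none of 12 fits. The groups of 3 libraries are too small for the check for outlying libraries.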

How the results depend on the processing

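No called value turned its direction under an alternative, and for single genes 418 values kept their side of the threshold, 17 passed it newly and 34 lost it. With the replicate block the number of members called was 2 for miR-125b against control in the groups labelled withdrawal, 1 for day 10 against day 2 in miR-125b cells, 11 for day 13 labelled continued against day 10 in miR-125b cells, 1 for its interaction and 5 for day 13 labelled withdrawal against day 10 in miR-125b cells. DESeq2 called 2 members at day 10, 1 for day 10 against day 2 in control cells, 10 for day 13 labelled continued against day 10 in miR-125b cells and 3 for its interaction, and 4 for day 13 labelled withdrawal against day 10 in miR-125b cells and 1 for its interaction. Without the low-count filter these counts were 0 for miR-125b against control labelled withdrawal and 2 for day 13 labelled continued against day 10, and both were 0 when the groups compared were fitted alone. Leaving out 1 library gave 0 to 2 called members at day 10, 0 for miR-125b against control labelled withdrawal, 0 to 6 for day 13 labelled continued against day 10 in miR-125b cells, 0 to 2 for its interaction, 0 to 3 for day 13 labelled withdrawal against day 10 in miR-125b cells and 0 to 1 for its interaction. Apart from the comparison with 0 throughout, the highest count in each of these came without replicate 2 of the day 10 miR-125b group. Without that library 5.84% of all genes were called at day 10. For day 13 labelled continued against day 10 in miR-125b cells 7.92% were. The shares for the other counts with a library left out are not given here. The median over the mean of 4 conditions was 0.040, and over day 2 and day 10 alone it was -0.056, or -0.046 with the block. With the block 2 members were called over day 2 and day 10 alone, and the share of all genes called is not given here. The difference between the medians follows from the conditions averaged. The 8-base site was held by 2 members in place of 5. The block changed no other call of a member in these comparisons. Medians of the 44 genes that lay near 0 changed sign when a library was left out, between -0.11 and 0.017 for day 13 labelled continued against day 10 in control cells, -0.15 and 0.014 for day 13 labelled withdrawal against day 10 there, and -0.089 and 0.058 for withdrawal against continued there. For the other changes the cause was not tested. Fen1 had the lowest level of the 44 genes, at 1.16 RPKM, and its count is uncertain since 84.2% of its exonic bases are shared with other genes.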
